A study of Mus musculus with 6 samples.

Results

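The 10 genes described here encode parts of the acid secretion machinery of intercalated cells, the acid-base cells of the renal collecting duct and connecting tubule. They are 5 kidney-type subunits of the vacuolar proton pump (Atp6v1b1, Atp6v1c2, Atp6v1g3, Atp6v0a4 and Atp6v0d2), the transcription factor Foxi1, the carbonic anhydrases Car2 and Car12 and the ammonia channels Rhbg and Rhcg. A gene entered through a probe set annotated with its symbol alone, and all 10 of 10 listed genes had exactly 1 such probe set among the 22180 genes tested. Total RNA of kidneys of mice aged 4 weeks was hybridised to 1 Affymetrix whole-transcript array per sample, 3 samples labelled Cre-positive and 3 labelled Cre-negative. The labels describe a Pals1/Mpp5 conditional knockout line, on a background they spell C56Bl/6, and Six2-Cre mice, all samples being labelled as mixed background. Six2-Cre is active in the progenitors of the nephron, including those of the connecting tubule, and not in the ureteric bud lineage that forms the collecting duct. The labels state neither how many conditional Mpp5 alleles the mice of either group carried nor that each sample was a separate mouse, so p-values reflect the spread among 6 samples, part of which may be technical. The series asks what reduced Pals1, the Crumbs complex scaffold encoded by Mpp5, does in nephrons.

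Type A intercalated cells secrete protons into the urine through a vacuolar proton pump (V-ATPase) in their apical membrane, and type B cells secrete bicarbonate through pendrin. Carbonic anhydrase supplies both ions from carbon dioxide and water, and ammonia that leaves through Rh channels traps the secreted protons as ammonium. The pump has a cytosolic V1 sector that splits ATP and a membrane V0 sector that carries protons, and several of its subunits exist as a widely expressed form and a form enriched in intercalated cells. Foxi1 is required for intercalated cells to form in mice, and inherited loss of the B1 or a4 pump subunit causes distal renal tubular acidosis in humans.

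Foxi1 is a forkhead factor whose known targets include pump subunit genes, so the promoters of the listed genes were searched for the forkhead core TGTTTA and for its longer form TGTTTAC, which contains the core, on both strands. RefSeq promoter sequences (GRCm38.p6) were matched for 7 of the 10 genes, and the 250 bases before the start were read. The longer form was found in 1 of 7, Atp6v1b1, and in 3.17% of all 32851 promoters of the table. The core was found in 2 of 7, Atp6v1b1 and Car12, and in 12.0% of all promoters. The 3 sequences below show the gene of the B1 subunit at chr6:83742767-83743016 with both forms at 98 bases before the start, Car12 at chr9:66713436-66713685 with the core at 11 bases before the start, and Atp6v1g3 at chr1:138273488-138273737, the pump gene whose transcript passed the test, with no match. All are on the plus strand, written 5′ to 3′, with capitals marking the match.
Atp6v1b1: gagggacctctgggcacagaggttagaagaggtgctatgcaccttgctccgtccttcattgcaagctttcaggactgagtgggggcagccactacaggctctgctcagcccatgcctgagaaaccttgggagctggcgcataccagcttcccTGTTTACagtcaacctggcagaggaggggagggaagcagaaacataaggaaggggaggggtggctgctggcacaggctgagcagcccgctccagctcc
Car12: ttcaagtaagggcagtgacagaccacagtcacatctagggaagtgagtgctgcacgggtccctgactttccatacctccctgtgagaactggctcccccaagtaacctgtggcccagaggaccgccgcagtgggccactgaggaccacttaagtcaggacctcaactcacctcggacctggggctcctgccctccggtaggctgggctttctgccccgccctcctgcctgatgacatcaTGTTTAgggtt
Atp6v1g3: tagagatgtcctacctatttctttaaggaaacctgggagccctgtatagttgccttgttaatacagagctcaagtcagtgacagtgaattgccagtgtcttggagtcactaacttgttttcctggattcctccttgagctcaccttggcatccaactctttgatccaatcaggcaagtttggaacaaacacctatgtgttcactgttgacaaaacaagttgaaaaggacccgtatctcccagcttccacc
A match describes these letters and is not a binding site.

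Arrays of the same group correlated at 0.9898 to 0.9947 over the tested genes and arrays of different groups at 0.9727 to 0.9752. Mpp5 was at 8.04, 8.06 and 8.20 in Cre-positive arrays, against 8.66, 8.69 and 8.78 in Cre-negative arrays (limma adjusted p = 0.00232). Sex was not balanced. The female transcript Xist was at 4.00 to 4.29 in the 3 Cre-positive arrays, against 10.76, 10.70 and 4.16 in Cre-negative replicates 1, 2 and 3, and the Y-linked gene Uty showed the reverse. Cre-negative replicate 3, the only male control, is therefore set beside the results as a single array. Cre-positive replicate 2 had skeletal muscle transcripts (Myh4 at 7.72) and Cre-negative replicate 2 had adrenal transcripts (Cyp11b1 at 11.10). All levels are log2 values after RMA, and differences are log2 differences, Cre-positive minus Cre-negative, ± SE from limma with n = 3 per group.

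Transcripts of Car2, of Car12 and of the basolateral ammonia channel gene Rhbg fell in Cre-positive kidneys. Foxi1 and most kidney-type pump subunits did not pass the test, although all 5 pump subunits had negative differences (-0.46 to -0.22). These sets of genes were not tested against each other. Of the 10 genes, 4 fell (Rhbg, Car12, Car2 and Atp6v1g3), 0 rose and 6 did not pass at a limma adjusted p under 0.05. Over all genes tested 21.8% passed, 11.1% as lower and 10.7% as higher. At an unadjusted p under 0.05, limma gave 6 lower and 0 higher, where 17% of all genes were lower and 16.5% higher at that level. For 5 of the 10 genes every Cre-positive array lay below every Cre-negative array, a pattern that 19.9% of all genes showed in that direction and 38.5% in either direction. The median difference of the 10 was -0.34, against -0.01 over all genes tested, and -0.17 against the male Cre-negative array. In bulk kidney RNA, fewer cells of a type and less RNA per cell cannot be told apart.

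**Figure D1:**
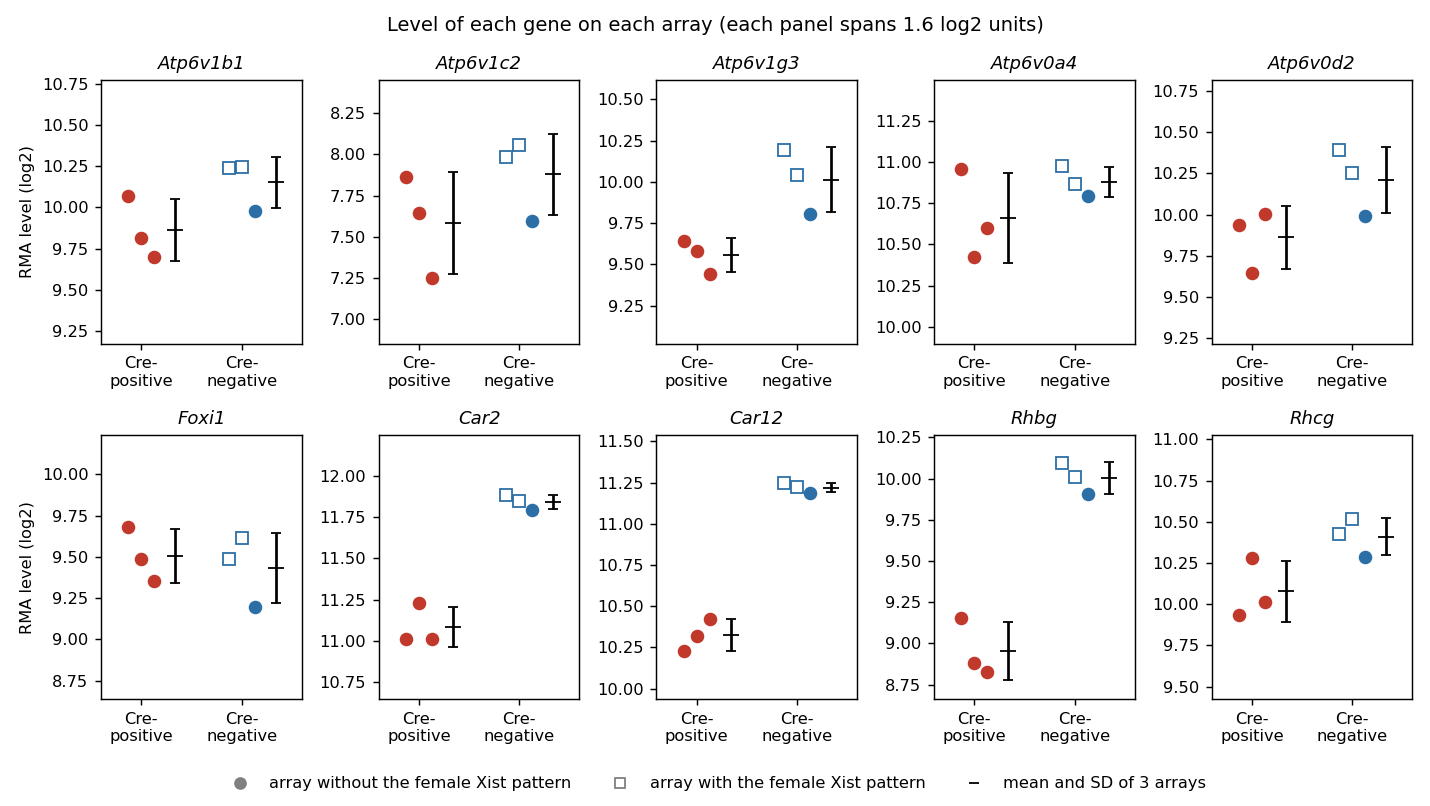
RMA level (log2) of each gene on each array, Cre-positive left of Cre-negative, each panel spanning 1.6 log2 units; squares mark the 2 arrays with the female Xist pattern, circles the others, and black bars the mean and SD of 3 arrays. Car2, Car12 and Rhbg separate the groups widely, and Cre-negative replicate 3 is the lowest control for all 10 genes.

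Carbonic anhydrase 2, the cytosolic enzyme that also serves proximal tubule and red blood cells, is encoded by Car2. Car2 was at 11.01, 11.23 and 11.01 in Cre-positive arrays, against 11.88, 11.85 and 11.79 in Cre-negative arrays. The lowest Cre-negative value lay above all Cre-positive values, and the controls were close together (SD 0.04, n = 3). The difference was -0.76 ± 0.09 (limma adjusted p = 0.00122), so that the transcript fell by 40.8% (95% interval of the ratio 0.510 to 0.687). Against the male control alone it was -0.71. With the male arrays alone, 3 against 1, the limma adjusted p was 0.0674 (0.000251 to 0.0674 over 17 alternatives).

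Car12 encodes carbonic anhydrase 12, a membrane enzyme whose catalytic domain faces the outside of the cell. Its level was 10.23, 10.32 and 10.42 in Cre-positive arrays, against 11.25, 11.23 and 11.19 in Cre-negative arrays. These groups did not overlap either, and the 3 controls were close together (SD 0.03, n = 3). The difference of -0.90 ± 0.09 (limma adjusted p = 0.000457) corresponds to a level 0.538 times that of Cre-negative kidneys (95% interval 0.468 to 0.617). It was -0.86 against the male control.

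Of the Rh glycoproteins, Rhbg encodes the basolateral ammonia channel of connecting tubule and collecting duct cells. Rhbg was at 9.16, 8.88 and 8.83 in Cre-positive arrays, against 10.10, 10.01 and 9.91 in Cre-negative arrays. Every Cre-positive array lay below every control, and this was the largest difference among the 10 genes, -1.05 ± 0.11 (limma adjusted p = 0.000682). The transcript fell by 51.7% (95% interval of the ratio 0.404 to 0.578), and the difference was -0.95 against the male control.

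Rhcg encodes the related channel found in the apical membrane, and in mouse also basolaterally. Its level was 9.93, 10.28 and 10.02 in Cre-positive arrays, against 10.43, 10.51 and 10.29 in Cre-negative arrays. The groups were separated by a narrow gap, with Cre-positive replicate 2 next to the male control. Rhcg did not pass (-0.33 ± 0.12, limma adjusted p = 0.0817). Its 95% interval for the ratio, 0.659 to 0.957, lies above that of Rhbg, and it passed without Cre-positive replicate 2 (-0.44, limma adjusted p = 0.0390; 0.0390 to 0.613 over 17 alternatives).

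The change of Rhbg minus that of Rhcg, a comparison added after the values were seen, was -0.72 ± 0.19 (n = 3 per group). The arrays of the groups did not overlap in this within-array ratio. By an exact permutation test (two-sided) p was 0.10, which is the floor for 3 against 3 arrays, so this pair could not have passed. Benjamini-Hochberg adjustment over 6 pairs, the others being of pump subunits, gave 0.48, a value that cannot lie below that floor.

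**Figure D2:**
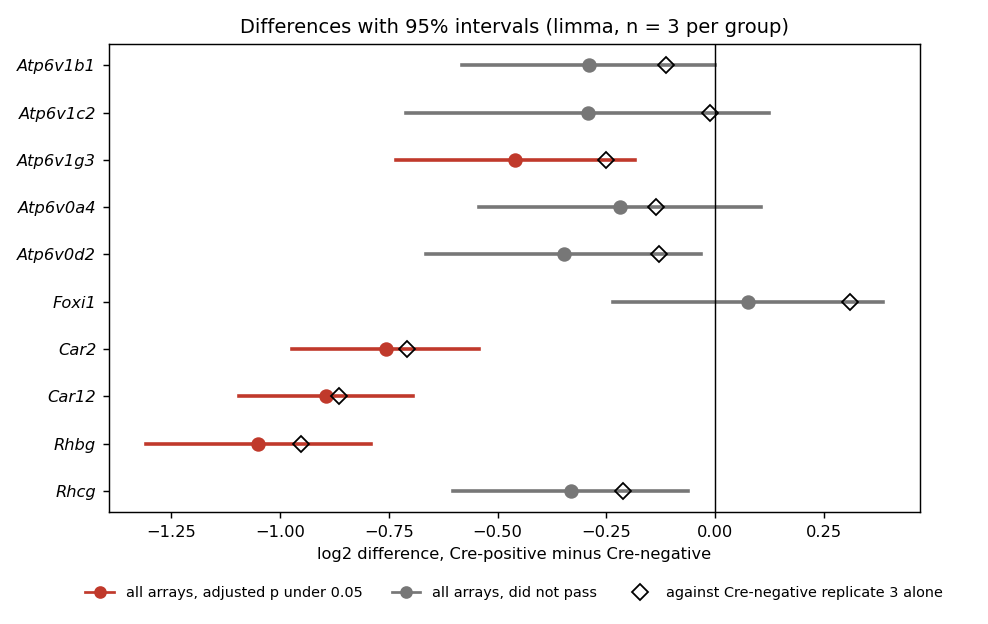
Log2 difference, Cre-positive minus Cre-negative, of each gene with its 95% interval from limma (n = 3 per group); red marks genes that passed, grey those that did not, and diamonds the difference from Cre-negative replicate 3 alone. The diamonds of Car2, Car12 and Rhbg stay at -0.71, -0.86 and -0.95, while those of the pump subunits lie between -0.25 and -0.01.

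In the V1 sector, Atp6v1b1 encodes the B1 subunit, part of the ATP-splitting head. It was at 10.07, 9.82 and 9.70 in Cre-positive arrays, against 10.24, 10.25 and 9.98 in Cre-negative arrays. Cre-positive replicate 1 lay above the male control, so the groups overlapped, and the difference of -0.29 ± 0.13 did not pass (limma adjusted p = 0.1501). Its 95% interval ran from -0.58 to 0.0005 on the log2 scale.

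Atp6v1g3 encodes the G3 subunit of the peripheral stalk and was the only pump subunit of the 10 genes that fell. It stood at 9.64, 9.58 and 9.44 in Cre-positive arrays, against 10.20, 10.04 and 9.81 in Cre-negative arrays, without overlap. The difference was -0.46 ± 0.12 (limma adjusted p = 0.0282), a ratio of 0.727 (95% interval 0.602 to 0.879). The call was lost without Cre-negative replicate 1 (-0.37, limma adjusted p = 0.0971), Cre-negative replicate 2 (-0.45, 0.0867), Cre-positive replicate 2 (-0.47, 0.0724) or Cre-positive replicate 3 (-0.40, 0.0687). With sex as a second factor it was -0.25 (limma adjusted p = 0.353; 0.0153 to 0.451 over 17 alternatives).

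Atp6v1c2 encodes the C2 subunit, which joins the stalks to the membrane sector. Its level was 7.86, 7.64 and 7.25 in Cre-positive arrays, against 7.98, 8.05 and 7.596 in Cre-negative arrays. The arrays overlapped, with the widest spread among the Cre-positive values of the 10 genes (SD 0.31, n = 3), and the difference of -0.29 ± 0.18 did not pass (limma adjusted p = 0.312). It was -0.01 against the male control.

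In the V0 sector, Atp6v0a4 encodes the a4 subunit, through which protons pass. It was at 10.95, 10.42 and 10.60 in Cre-positive arrays, against 10.98, 10.86 and 10.80 in Cre-negative arrays. Cre-positive replicate 1 lay among the controls and the other two below them. The difference of -0.22 ± 0.14 did not pass (limma adjusted p = 0.332), and it was -0.37 without Cre-positive replicate 1 and -0.10 without Cre-positive replicate 2.

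Atp6v0d2 encodes the d2 subunit, which couples the sectors and is also made by osteoclasts and macrophages. Its level was 9.94, 9.65 and 10.001 in Cre-positive arrays, against 10.39, 10.25 and 9.99 in Cre-negative arrays. The male control fell among the Cre-positive values. The difference of -0.35 ± 0.14 did not pass over all genes (limma adjusted p = 0.115), although its unadjusted p was 0.0349.

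Foxi1 was the only one of the 10 genes with a positive difference. It was at 9.68, 9.48 and 9.35 in Cre-positive arrays, against 9.49, 9.61 and 9.20 in Cre-negative arrays. The groups overlapped fully, with the highest value in a Cre-positive and the lowest in a Cre-negative array. The difference of 0.07 ± 0.13 did not pass (limma adjusted p = 0.759), and its 95% interval allowed ratios from 0.849 to 1.31. The sign turned without Cre-negative replicate 3 (-0.04) or without Cre-positive replicate 1 (-0.01), and the difference from the male control was 0.31.

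Cre-negative replicate 3 was the lowest of the 3 controls for 10 of these 10 genes and for 17 of 19 other intercalated cell genes, where 37.1% of all genes tested had their lowest control value in it. All 3 Cre-positive arrays share its male Xist pattern. In a fit with sex as a factor, 3 of the 4 calls remained (Rhbg, Car2 and Car12), where 1922 of the 4844 calls over all genes (39.7%) remained and 9.15% of all genes passed. Sex varied within the Cre-negative group alone, so this fit compares the Cre-positive arrays with that 1 array. The member call that was lost, Atp6v1g3, went from -0.46 ± 0.12 to -0.25 ± 0.14, so its difference changed. Other calls can be lost in this fit through a larger SE while the difference hardly changes. The mean level of the 10 genes was 9.66 to 9.85 in Cre-positive arrays, against 10.05 in the male control and 10.27 and 10.29 in the female controls.

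The other genes of the pump were read for comparison. Of 19 other V-ATPase genes measured, 6 fell, 1 rose and 12 did not pass, so that 36.8% passed, against 21.8% of all genes tested. The median was -0.15. The falls were Atp6v0e2 (-0.93 ± 0.17), Atp6v1b2, the widely expressed B2 subunit (-0.47 ± 0.09), Atp6v1a, the catalytic A subunit (-0.39 ± 0.08), Atp6v0a2 (-0.39 ± 0.12), Atp6v1h (-0.36 ± 0.09) and Atp6v1g1 (-0.28 ± 0.08). The gene that rose was Tcirg1, which encodes the a3 subunit of osteoclasts and lysosomes. Tcirg1 was at 8.64, 8.80 and 8.83 in Cre-positive arrays, against 7.69, 7.67 and 7.78 in Cre-negative arrays (1.04 ± 0.09, limma adjusted p = 0.000272). With sex as a second factor only Tcirg1 kept its call, where 39.7% of the calls over all genes remained. Against the male control the differences were -0.84 (Atp6v0e2), -0.44 (Atp6v1b2), -0.39 (Atp6v1a), -0.49 (Atp6v0a2), -0.33 (Atp6v1h) and -0.24 (Atp6v1g1). For Atp6v1a the SE with sex as a factor was 0.13, against 0.08 without it.

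Macrophage and osteoclast markers moved in the same arrays as Tcirg1. 10 of 14 rose, 1 fell (Acp5, -0.45 ± 0.10) and 3 did not pass, so that 78.6% passed, against 21.8% of all genes tested. Their median difference was 1.55, and the 4 genes of smallest p were Cd14 (2.56 ± 0.12), Gpnmb (2.96 ± 0.16), Itgam (2.40 ± 0.23) and Cd68 (2.13 ± 0.21). Their mean level was 7.63 to 8.30 in Cre-positive arrays, against 6.53 to 6.67 in Cre-negative arrays, and the osteoclast fusion genes Ocstamp (0.07 ± 0.11) and Dcstamp (0.49 ± 0.13) were at means of 6.30 and 5.36 in Cre-positive arrays and of 6.22 and 4.87 in Cre-negative arrays. Their part in the values of Tcirg1 and Atp6v0d2 was not tested.

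**Figure D3:**
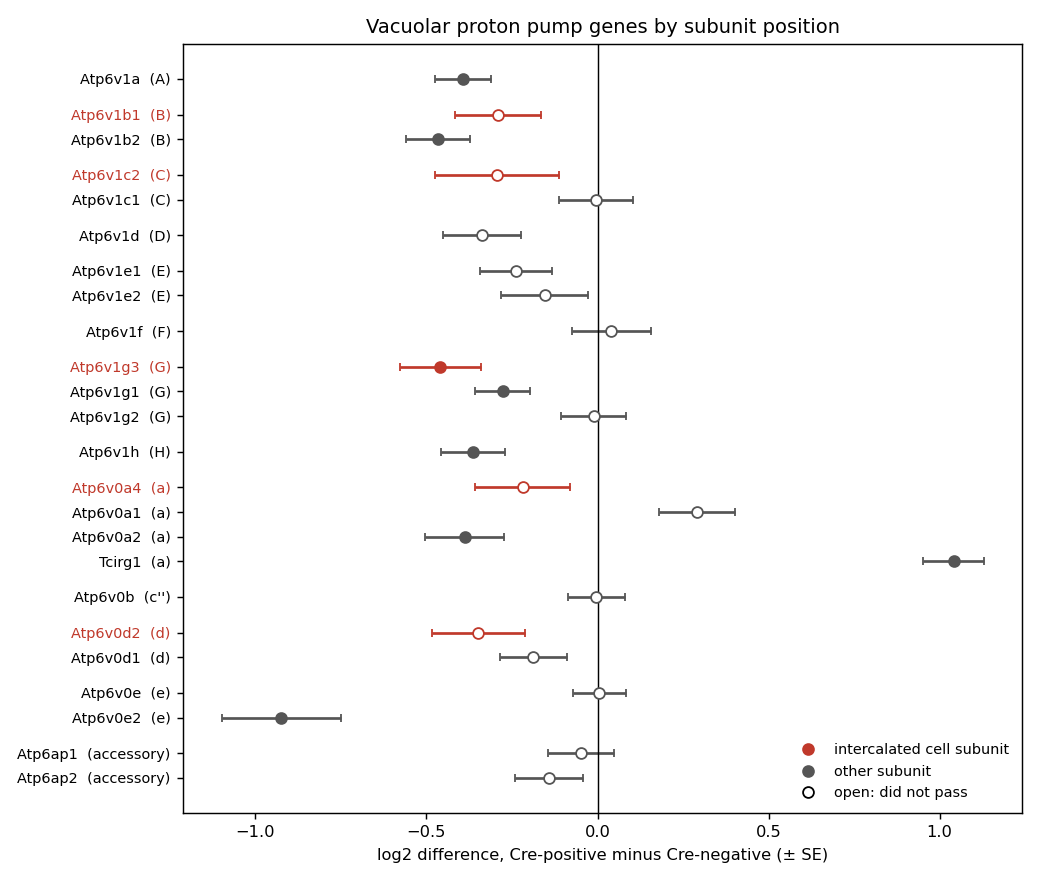
Log2 difference, Cre-positive minus Cre-negative (± SE from limma, n = 3 per group), of each pump gene, ordered by subunit position given in brackets, with intercalated cell subunits in red and open circles for genes that did not pass. Tcirg1 stands alone at 1.04 while both B subunits lie below 0.

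Within subunit families, the change of each kidney-type form was set against that of its widely expressed relative in the same arrays. The change of Atp6v0a4 minus that of Atp6v0a1 was the largest in size of the 5 pump pairs, -0.51 ± 0.22. Atp6v0a1 itself had a difference of 0.29 ± 0.11 that did not pass (limma adjusted p = 0.108). The change of Atp6v1b1 minus that of Atp6v1b2 was 0.18 ± 0.19, and that of Atp6v1g3 minus Atp6v1g1 was -0.18 ± 0.12. For Atp6v0d2 minus Atp6v0d1 it was -0.16 ± 0.18 and for Atp6v1c2 minus Atp6v1c1 -0.29 ± 0.30 (n = 3 per group). The arrays of the groups overlapped in all 5 of these ratios. Exact two-sided permutation tests gave p = 0.20 to 0.50, but no pair could have passed, as 0.10 is the smallest possible p. Leaving out 1 array moved 4 of the values by over 1.5 times. Without Cre-positive replicate 1 the B pair was at 0.0229 and the C pair at -0.53, and without Cre-positive replicate 3 they were at 0.32 and -0.09, with the G pair at -0.11. The B pair was at 0.10 without Cre-negative replicate 3, and the C pair at -0.43 without it. The C pair was at -0.18 without Cre-negative replicate 2. The G pair was at -0.12 without Cre-negative replicate 1. The d pair was at -0.04 without Cre-positive replicate 2, at -0.27 without Cre-positive replicate 1, and at -0.09, -0.10 and -0.28 without Cre-negative replicates 1, 2 and 3. With the male arrays alone the a pair was at -0.28, the B pair at 0.32 and the G pair at -0.0075.

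Other transcripts of intercalated cells moved in both directions. Of 19 genes measured, 8 fell, 2 rose and 9 did not pass, so that 52.6% passed, against 21.8% of all genes tested. The median was -0.22. Insrr, the alkali-sensing receptor of type B cells, had the largest fall (-1.49 ± 0.15, limma adjusted p = 0.000594), at 6.63, 6.66 and 6.13 in Cre-positive arrays, against 8.04, 8.04 and 7.81 in Cre-negative arrays. Oxgr1, the alpha-ketoglutarate receptor of type B cells, fell by 1.01 on the log2 scale (SE 0.12). Atp4a, a proton-potassium pump subunit (-1.04 ± 0.15), Bsnd, the chloride channel subunit barttin, which the thick limb also makes (-1.19 ± 0.13), and Hepacam2 (-0.59 ± 0.09) fell as well, as did the anion exchangers Slc26a4 (-1.36 ± 0.21), Slc26a7 (-1.29 ± 0.12) and Slc4a1 (-1.02 ± 0.15). In the fit with sex as a factor, 5 of the 10 calls remained, those of Insrr, Oxgr1, Bsnd, Atp4a and Slc26a7, against 39.7% of the calls over all genes.

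The transcripts that rose were P2ry14, a receptor for UDP-glucose, and Kit, a receptor tyrosine kinase that other cell types also carry. P2ry14 was at 7.999, 7.91 and 8.48 in Cre-positive arrays, against 6.92, 7.49 and 7.06 in Cre-negative arrays (0.97 ± 0.19, limma adjusted p = 0.00944). Kit differed by 0.54 ± 0.13 (limma adjusted p = 0.0214). The transcription factor genes Dmrt2 (0.32 ± 0.13), Tfcp2l1 (0.26 ± 0.09) and Hmx2 (-0.22 ± 0.11) did not pass, like Foxi1, nor did the vesicle water channel Aqp6 of type A cells (0.09 ± 0.10) or the type B exchanger Slc4a9 (-0.22 ± 0.13). These differences between genes were not tested against each other.

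Markers of principal cells, the neighbouring cells of the collecting duct, included 3 that rose, 0 that fell and 6 that did not pass. The share that passed was 33.3%, against 21.8% of all genes tested. The rises were Aqp2 (0.91 ± 0.23), Scnn1b (0.54 ± 0.12) and Scnn1g (0.56 ± 0.12). Against the male control the differences were 0.97, 0.72 and 0.74. With sex as a factor Aqp2 lost its call, its SE being 0.34 instead of 0.23. Fxyd4 (0.37 ± 0.13), Aqp4 (-0.50 ± 0.18) and Avpr2 (-0.25 ± 0.12) were among those that did not pass. The median over these 9 genes was 0.37, and their mean level was 8.99 to 9.39 in Cre-positive arrays, against 8.86 to 9.12 in Cre-negative arrays. Of the 13 erythroid markers listed, 5 had a probe set of their own, of which 2 rose (Epb42, 0.69 ± 0.12, and Sptb, 0.44 ± 0.11) and 0 fell, while Klf1 (-0.36 ± 0.12) and Rhag (-0.01 ± 0.11) did not pass. Of these 5, 40% passed, against 21.8% of all genes tested. Neither rise passed with sex as a factor, where the differences were 0.56 ± 0.17 for Epb42 and 0.56 ± 0.16 for Sptb. The mean level of the 5 markers was 5.32 to 5.47 in Cre-positive arrays, against 5.23 to 5.31 in Cre-negative arrays. Their part in the values of Car2 was not tested.

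**Figure D4:**
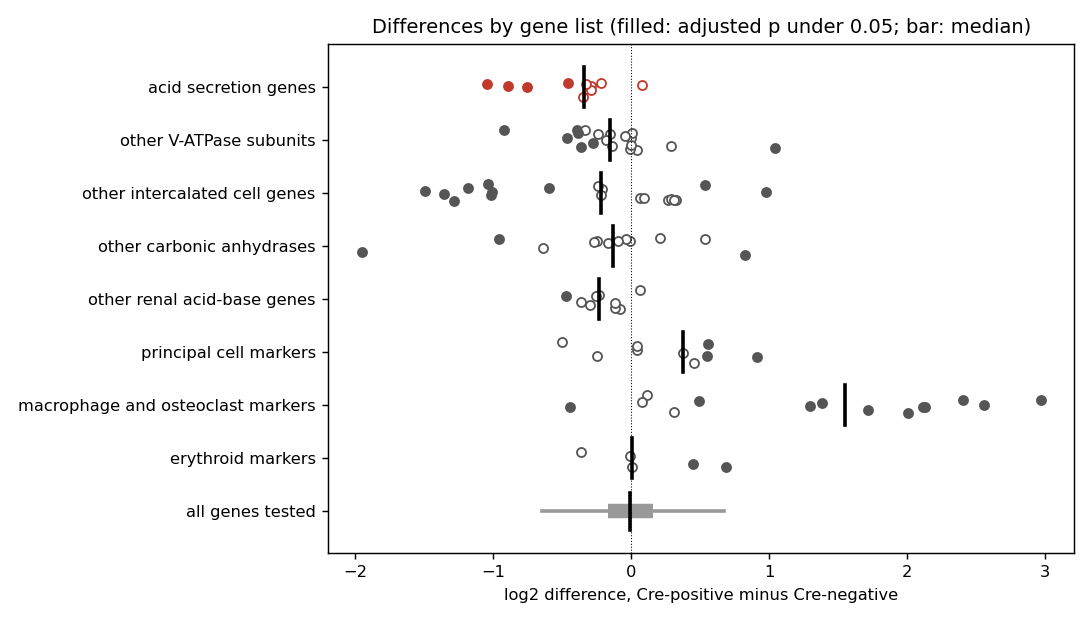
Log2 difference, Cre-positive minus Cre-negative, of every measured gene of each list, with filled points for genes that passed and a vertical bar at the list's median; for all genes tested the thick band spans the middle 50% and the line the 5th to 95th percentile. The acid secretion genes have their median at -0.34 and the macrophage and osteoclast markers at 1.55.

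Other carbonic anhydrases moved in both directions. Of 12 measured, 2 fell, 1 rose and 9 did not pass, so that 25% passed, close to the 21.8% of all genes tested. Their median difference was -0.13. Car4, the membrane-anchored enzyme of proximal tubule and thick limb, fell most. It was at 8.92, 9.11 and 9.24 in Cre-positive arrays, against 10.94, 10.93 and 11.24 in Cre-negative arrays (-1.95 ± 0.12, limma adjusted p = 9.2e-05), and -2.15 from the male control. Car8, a relative without enzymatic activity, also fell (-0.96 ± 0.17, limma adjusted p = 0.00555), and the cytosolic Car13 rose (0.82 ± 0.16, limma adjusted p = 0.00796). Car9, a membrane enzyme induced by low oxygen, did not pass (-0.64 ± 0.20, limma adjusted p = 0.0540). Against the male control the differences were -0.78 for Car8, 0.87 for Car13 and -1.13 for Car9. In the fit with sex as a factor, Car4 kept its call and Car9 passed. Car8 and Car13 lost their calls in it, with an SE of 0.23 each.

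Of 9 other measured genes for renal acid-base handling, 1 fell and 8 did not pass, so that 11.1% passed, against 21.8% of all genes tested. Their median difference was -0.23. The gene that fell was Slc9a3, the apical sodium-proton exchanger of the proximal tubule (-0.47 ± 0.09, limma adjusted p = 0.00881). Against the male control Slc9a3 was at -0.47 too. With sex as a factor it lost its call, its SE being 0.14 instead of 0.09. The bicarbonate exporter Slc4a4 (-0.12 ± 0.09), the ammonia-forming enzyme gene Glud1 (-0.23 ± 0.14) and the glutamine transporter Slc38a3 (-0.08 ± 0.40) did not pass, the last with a wide spread. The proton-sensing receptor Gpr4 (-0.30 ± 0.10) and the chloride cotransporter Slc12a7 (-0.26 ± 0.11) did not pass either.

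Across the settings tried, Rhbg and Car12 passed in all 17 alternatives, Car2 in 16, Atp6v1g3 in 10, Rhcg in 3, Atp6v0d2 in 1, and Atp6v1b1, Atp6v0a4, Atp6v1c2 and Foxi1 in 0.

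**Figure D5:**
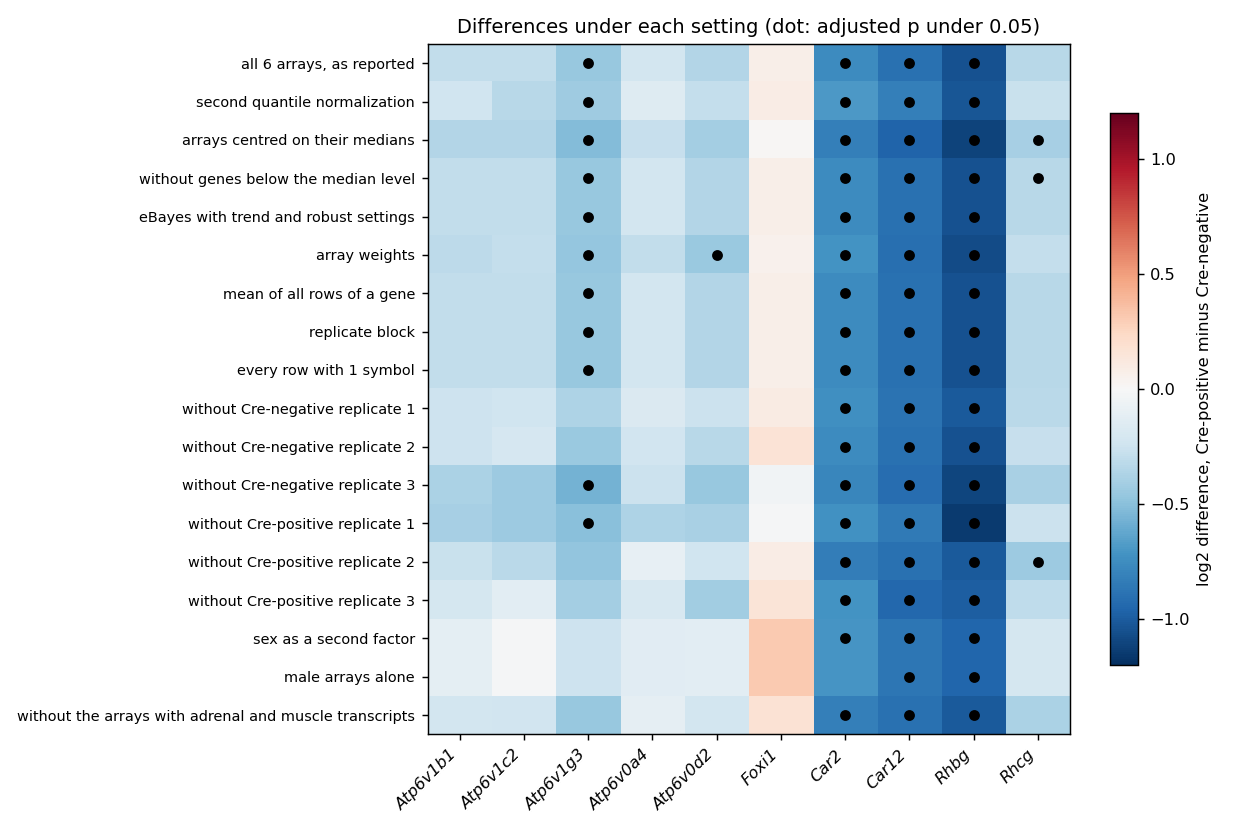
Log2 difference, Cre-positive minus Cre-negative, of each gene (columns) under each setting (lines down the page), coloured from blue for lower to red for higher, with a black dot where the limma adjusted p was under 0.05. The columns of Rhbg and Car12 carry a dot throughout, and Foxi1 is near white or light red with none.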

How the data were processed

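The deposited table held log2 values of 41345 probe sets in 6 kidney samples, made with RMA and Partek per the submitters' processing notes, without versions; the genome build behind the probe sets is not stated. The log2 scale is that of RMA and fits the range of the values, 1.89 to 13.6. RMA by definition corrects background, quantile-normalizes and summarises probe sets, and it compresses differences of dim ones. GEO's platform annotation gave 23521 probe sets 1 symbol, 1814 several and 16010 none; only the first were used, and where a gene had several the one with the highest mean stood for it. There were 0 columns of other samples, and no scan dates were used, so no batch was tested.

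The test between groups was that of limma (version 3.58.1, R 4.3.3), two-sided and without covariate or filter, with Benjamini-Hochberg adjustment over 22180 genes at 0.05. Members and gene lists were chosen with earlier results of these data known. All 10 members are named, and of each other list the 4 genes of smallest p and up to 8 that passed. P2ry14, Kit, Aqp4, Avpr2, Aqp6, Slc4a9, Hmx2, Dmrt2 and Tfcp2l1 were named besides, after their values were seen. So were Ocstamp, Dcstamp, Acp5, Ctsk, Myh4, Cyp11b1, Slc4a4 and Slc38a3. List genes without a probe set of their own were not analysed here. The limma step was tested on simulated data of 22180 genes, of which 200 were given a true change. It recovered 28% of 50 genes with a true log2 change of 0.5, and 98% of 50 with one of 1. In the deposited data 4844 genes passed, and the adjustment depends on how many genes change, so these shares need not hold there. Same-numbered arrays of the groups did not deviate together (correlations -0.04 to 0.03), so replicate numbers were not taken as pairs. Alternatives were 2 other scalings, a level filter, other eBayes settings, array weights, other choices of probe set, the replicate number as a block, each array left out, sex from Xist and Uty, and arrays with other tissues' transcripts left out. Python 3.11.15 with pandas 2.3.3 and matplotlib 3.10.9 joined the tables and drew the figures.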

Additional observations from a re-analysis of the deposited data

How the results depend on the processing

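Over all genes 4844 passed, against 3141 to 4885 when each array was left out, 2030 with sex as a second factor, 1101 with the male arrays alone and 1853 without the arrays with adrenal and muscle transcripts. Centring arrays on their medians left 37.3% of the calls higher, against 49.0% in the deposited scaling. That centring, the level filter and array weights each gave 5 lower members, against 4 in the main fit. The 4 lower members numbered 3 to 4 when each array was left out and 2 with the male arrays alone, and 0 members were higher under any alternative. The 7 calls among other V-ATPase genes numbered 3 to 7 when each array was left out (3 without Cre-negative replicate 2; 4 without Cre-negative replicate 1 or 3 or Cre-positive replicate 1), 1 with sex as a second factor, 1 with the male arrays alone and 1 without the arrays with adrenal and muscle transcripts. The 10 calls among other intercalated cell genes numbered 5 with sex as a second factor and 4 with the male arrays alone. The Foxi1 difference ran from -0.0434 to 0.165 when each array was left out, with the sign turned without Cre-negative replicate 3 and, at -0.0117, without Cre-positive replicate 1. With the male arrays alone the change of Atp6v0d2 minus that of Atp6v0d1 turned to 0.0866 and that of Atp6v1c2 minus Atp6v1c1 to 0.000393, values with no test. The fit with the replicate number as a block gave 3977 calls over all genes and 4 lower members, and changed no member's call. Its numbers are shared labels only, as same-numbered arrays correlated at -0.04 to 0.03. The male fit has fewer samples and assumes that the single Cre-negative array varies like the others; otherwise the cause was not tested. The number of arrays limits all of these values.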
